A study of Homo sapiens with 12 samples.

Results

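The transcripts of 10 genes of the SR protein family, SRSF1, SRSF3, SRSF4, SRSF5, SRSF6, SRSF7, SRSF9, SRSF10, SRSF11 and TRA2B, were followed probe by probe on 44 k Agilent microarrays of H358 cells, a human lung adenocarcinoma line. A probe belonged to one of these genes when its RefSeq transcript accession carried that symbol in the RefSeq gene table. These 10 genes are among 16557 genes named on the array, and they held 18 of its 41000 gene probes. SRSF10 had 4 probes, SRSF1 had 3, SRSF4, SRSF6 and SRSF7 had 2 each, and SRSF3, SRSF5, SRSF9, SRSF11 and TRA2B had 1 each.

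All 12 arrays came from a single H358/Tet-On/SRSF2 clone, which carries SRSF2 under a promoter that responds to tetracyclines. The 6 control arrays are labelled as untreated, and the 6 SRSF2 over-expression arrays as induced for 24 hours, with doxycycline at 1 µg/mL given in the protocol. Doxycycline itself and SRSF2 cannot be told apart in this design. The arrays lay on 3 slides, each with 2 arrays of each condition. The paper describes 3 labelings per condition with 2 arrays each. P-values over 6 arrays against 6 thus measure a spread between arrays that is at least partly technical. Whether the labelings came from separate cultures is not stated.

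SR proteins bind exonic sequences of pre-mRNA through RNA recognition motifs and recruit the splicing machinery through domains rich in arginine and serine. Many SR protein genes carry a highly conserved exon with an early stop codon, and SR proteins control how often this exon is kept in their own transcripts and in those of other family members. Phosphorylation by SRPK and CLK kinases sets where in the cell the SR proteins sit and how active they are.

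The only SRSF2 probe matched on the array ran against the labels. A_23_P77776 read between 3.74 and 4.03, with a median of 3.96, in control and from 2.29 to 2.56, with a median of 2.51, on arrays carrying the SRSF2 over-expression label. These values, like all levels given here, are log2 signals, taken relative to each array's own 75th percentile. The SRSF2 probe fell by 1.46 on the log2 scale (SE 0.0627, limma adjusted p = 1.68e-09). Where this probe lies on the SRSF2 transcript, and so whether it can detect the transcript of the introduced SRSF2, was not tested. The RT-PCR and western blots with which the study followed SRSF2 itself were not analysed here. For SRSF8, an SRSF2 paralogue whose probes may share signal with it, A_23_P363426 changed by -1.81, A_32_P17635 by -1.70 and A_23_P116016 by -0.32 (limma adjusted p at most 0.00018, but 0.741 for A_23_P116016 with spike-in scaling), while A_23_P116013 was too dim to be tested. All directions below are those of the arrays as labelled.

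Between 54.2% and 67.8% of spots were well above background on control arrays, against 55.2% to 68.0% on SRSF2 arrays. The 75th percentile signal ran from 795.6 to 1093.3 in control and from 979.6 to 1099.7 with SRSF2. All 9 probes of 6 epithelial genes could be tested, 6 of them well above background on every array. The others, of KRT8 and KRT18, each had an SRSF2 array with an outlier spot, which counts here as not above background. Probes of COL1A2, DCN, LUM, CDH5, KDR and PTPRC, markers of fibroblasts, endothelium and leukocytes, were well above background on no array, while those of VIM, PECAM1 and CD14 were on all 12 and those of CD3E on some arrays.

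All 18 SR protein gene probes could be tested, and 15 were well above background on all 12 arrays. TRA2B is not among the 15 because the outlier spot of an SRSF2 array counts here as not above background. With limma over 24330 probes, 16 of the 18 passed an adjusted p of 0.05 (88.9%), 7 higher and 9 lower with SRSF2. Over all probes tested, 57.7% passed, 29.7% higher and 28.0% lower. The median size of change was 0.60 on the log2 scale for the SR protein probes and 0.30 for all probes. The median signed change was -0.18 for the SR protein probes and 0.01 for all probes. Arrays of the conditions did not overlap for 12 of the 18 probes (66.7%), against 40.2% of all probes. At a 2-fold threshold, 2 of the 18 were called (11.1%), both lower, against 7.0% of all probes. SRSF4 A_24_P148086, 1 of the 2, met the background filter only through the control arrays, where it is higher. Its call is thus not independent of the filter. The change had the same sign on all 3 slides for 17 of the 18 probes, the exception being SRSF9.

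**Figure D1:**
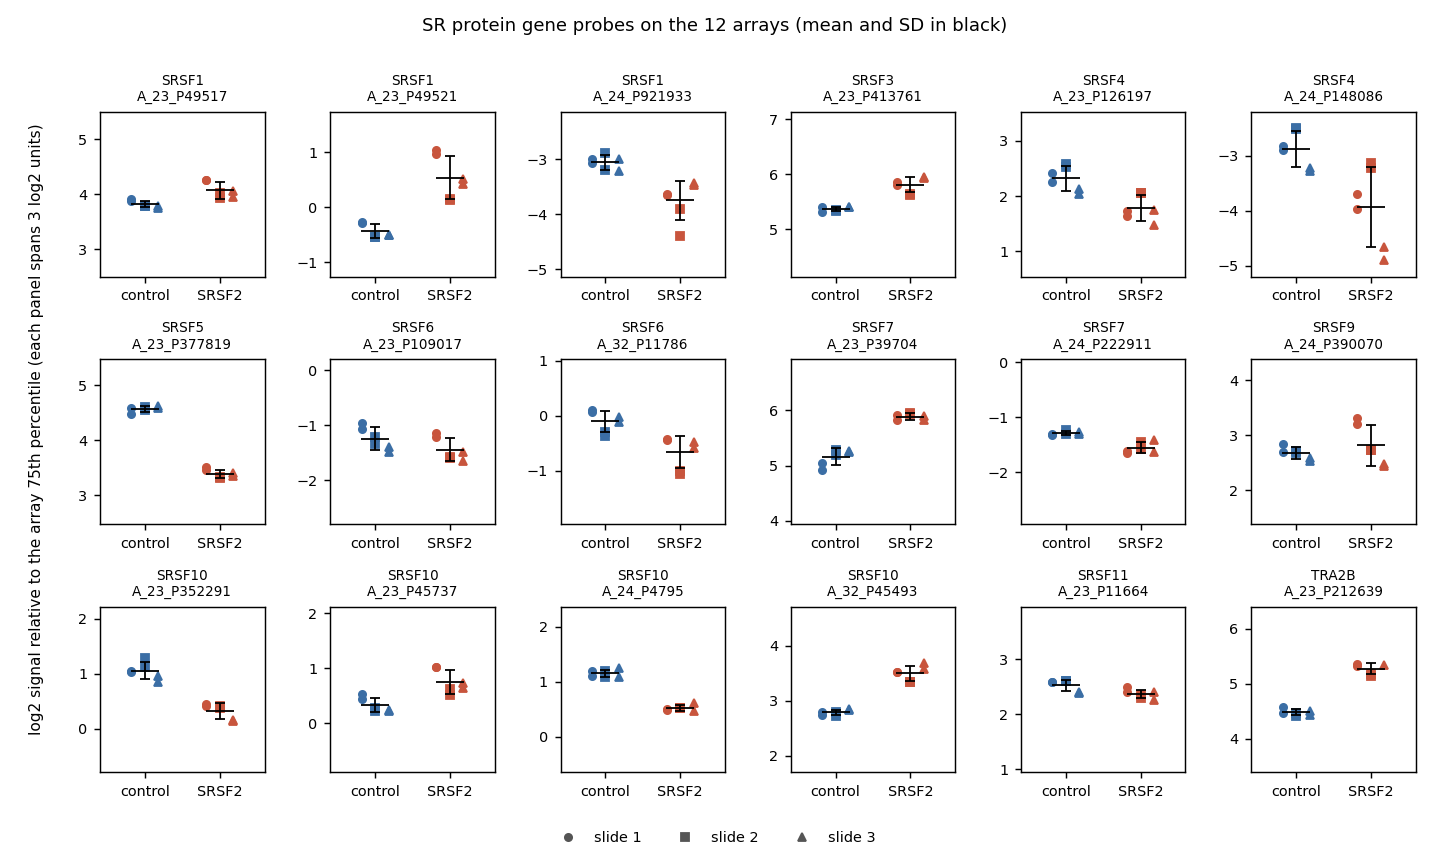
Log2 signal relative to the array 75th percentile (vertical axis) of each of the 18 SR protein gene probes on the 6 control and 6 SRSF2 over-expression arrays. Symbols give the slide and black bars the mean and SD; each panel spans 3 log2 units around its own centre. SRSF5, SRSF7 A_23_P39704 and TRA2B separate the conditions by more than the spread of their arrays, while the SRSF9 arrays overlap.

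Of the 10 genes, SRSF4, SRSF5, SRSF6 and SRSF11 had probes passing the test only lower, SRSF3 and TRA2B only higher, SRSF1, SRSF7 and SRSF10 had probes in both directions, and SRSF9 had none that passed. Among all genes with at least 2 tested probes, 9.57% (358 of 3741) had probes in both directions. Among the 5 SR protein genes with at least 2 probes there were 3. The comparison does not allow for the number of probes per gene, which among the 10 genes was largest for SRSF10 and SRSF1. With spike-in scaling no lower probe of SRSF1, SRSF7 or SRSF10 passed (limma adjusted p from 0.0646 to 0.843). The share over all genes was not computed with that scaling.

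**Figure D2:**
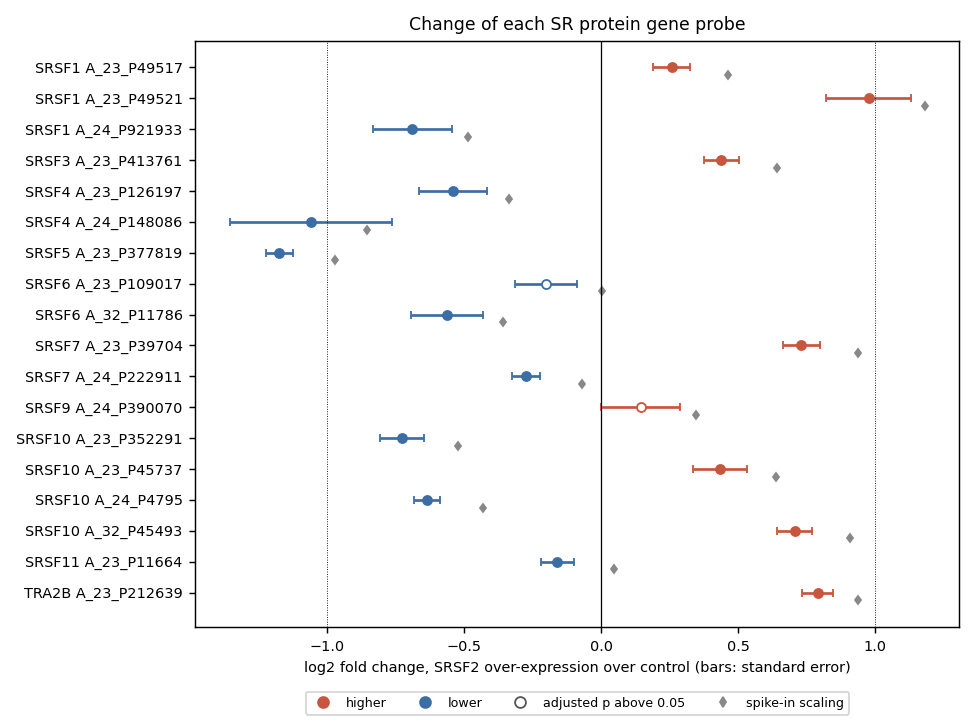
Log2 fold change of each SR protein gene probe, SRSF2 over-expression over control (horizontal axis), with its standard error. Filled circles passed the test, dotted lines mark 2-fold, and diamonds give the value when arrays were scaled on spike-in probes. SRSF5 at -1.17 and SRSF4 A_24_P148086 at -1.06 lie beyond the 2-fold lines.

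SRSF5, an SR protein whose messenger RNA responds to insulin and growth stimuli, had the largest fitted decrease of the SR protein probes. Its probe A_23_P377819 (NM_006925) read between 4.47 and 4.62 in control, with a median of 4.58, and between 3.32 and 3.51 with SRSF2, with a median of 3.37. No array of either condition came near the other. The decrease was 2.26-fold, a log2 change of -1.17 (SE 0.0484, limma adjusted p = 1.25e-09; exact two-sided permutation p = 0.00216, the smallest that 6 against 6 arrays can give). The permutation takes all arrays as exchangeable, although arrays of a slide varied together. The decrease was -1.05, -1.25 and -1.23 on slides 1, 2 and 3.

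SRSF4, a large SR protein with a long arginine-serine domain, was lower with both of its probes (NM_005626). On A_23_P126197 the control arrays read between 2.03 and 2.59, with a median of 2.34, and the SRSF2 arrays between 1.48 and 2.06, with a median of 1.73. The highest SRSF2 array thus reached just above the lowest control array. The change was -0.54 (SE 0.123, limma adjusted p = 0.00215), with -0.67, -0.50 and -0.46 by slide. On A_24_P148086 the control arrays read between -3.28 and -2.49, with a median of -2.85, and the SRSF2 arrays between -4.90 and -3.13, with a median of -3.84. This probe is dim, and only 4 of the 6 SRSF2 arrays were well above background, so it was tested only through its control arrays. Its fold change of 2.08, a log2 change of -1.06 (SE 0.296, limma adjusted p = 0.00802), came with slide values from -0.67 to -1.53. It shrank to -0.37 with normexp background correction. Its limma adjusted p was 0.0694 without slide 1 and 0.073 on the means of same-condition arrays of a slide.

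SRSF6, which acts on constitutive and alternative exons, had 2 probes of the same accession (NM_006275), both lower on every slide. A_32_P11786 read between -0.36 and 0.11 in control, with a median of -0.07, and between -1.06 and -0.42 with SRSF2, with a median of -0.53. The conditions did not overlap, and the change was -0.56 (SE 0.132, limma adjusted p = 0.00264). A_23_P109017 read between -1.49 and -0.95, median -1.27, in control and between -1.64 and -1.14, median -1.53, with SRSF2. The arrays of the latter overlapped, and its change of -0.20 did not pass (SE 0.114, limma adjusted p = 0.151). With the replicate number of the labels as a block its adjusted p was 0.0183, and without slide 1 it was 0.0319, but with slide as a block on the means of same-condition arrays it was 0.0703.

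SRSF11, which carries an arginine-serine domain and associates with early splicing complexes, showed a small difference. A_23_P11664 (NM_004768) ranged from 2.38 to 2.61 around a median of 2.59 in control and from 2.27 to 2.49 around a median of 2.38 with SRSF2. The change was -0.16 (SE 0.0594, limma adjusted p = 0.035). The arrays overlapped, the smallest slide value was -0.06, and the probe passed the test under 14 of 30 alternatives. It did not pass without any 1 of control replicates 1 to 4 or SRSF2 replicates 3 to 5 (adjusted p from 0.0546 to 0.0758), nor without slide 1 or slide 2 (0.0741 and 0.286).

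SRSF3, the smallest of the SR proteins and also a factor in export and polyadenylation of messenger RNA, was higher. A_23_P413761 (NM_003017) read between 5.32 and 5.41 in control, with a median of 5.38, and between 5.63 and 5.96 with SRSF2, with a median of 5.83. The control arrays lay close together and all SRSF2 arrays lay above them. The increase was 1.35-fold, a log2 change of 0.44 (SE 0.0638, limma adjusted p = 7.12e-05), with 0.46, 0.30 and 0.54 by slide.

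TRA2B, the human homologue of fly transformer-2, binds GAA-rich exonic enhancers. On A_23_P212639 (NM_004593) the control arrays read between 4.41 and 4.58, with a median of 4.47, and the SRSF2 arrays between 5.14 and 5.36, with a median of 5.32. One SRSF2 array carried an outlier spot and was left out of the fit, so this is 6 arrays against 5. The increase was 1.73-fold, 0.79 on the log2 scale (SE 0.0579, limma adjusted p = 3.32e-07), and lay between 0.72 and 0.87 on the slides.

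Upstream sequence is shown for SRSF5, SRSF3 and TRA2B, single-probe genes whose arrays did not overlap, 1 lower and the others higher. The 250 bases before the RefSeq start were searched on both strands, and matches are in capitals. The letters searched were TATAAA for the TATA box, GGGCGG for the GC box, TGACGT for the core of the cyclic AMP response element and CCAAT for the box of that name. None of these contains another. The windows are chr14:69766892-69767141, plus strand, for SRSF5, chr6:36594112-36594361, plus strand, for SRSF3 and chr3:185938015-185938264, minus strand, for TRA2B (RefSeq, GRCh38.p14), each printed 5′ to 3′ on the gene's strand:
SRSF5: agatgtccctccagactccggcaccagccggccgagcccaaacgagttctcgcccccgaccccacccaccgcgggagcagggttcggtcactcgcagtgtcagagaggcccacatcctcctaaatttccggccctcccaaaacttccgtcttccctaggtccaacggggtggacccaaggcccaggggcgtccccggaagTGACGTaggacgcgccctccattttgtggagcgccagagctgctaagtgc
SRSF3: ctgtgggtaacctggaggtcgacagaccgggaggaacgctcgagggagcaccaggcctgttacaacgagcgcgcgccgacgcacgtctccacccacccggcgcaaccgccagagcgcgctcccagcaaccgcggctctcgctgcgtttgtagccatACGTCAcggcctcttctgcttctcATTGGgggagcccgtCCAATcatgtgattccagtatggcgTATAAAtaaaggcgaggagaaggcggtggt
TRA2B: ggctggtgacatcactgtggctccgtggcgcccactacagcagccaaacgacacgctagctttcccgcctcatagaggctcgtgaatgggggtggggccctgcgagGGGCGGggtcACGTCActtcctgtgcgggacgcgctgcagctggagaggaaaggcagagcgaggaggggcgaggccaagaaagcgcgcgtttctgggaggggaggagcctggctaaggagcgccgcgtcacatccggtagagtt
TGACGT or its reverse complement stands once in each of these windows and, of the 10 genes, also in that of SRSF1. It stands in 7.1% of 35116 RefSeq windows of this length. The 10 genes have 12 such windows, because SRSF7 and SRSF11 have a second RefSeq start inside the gene. TATAAA stands in 3 of the 12, those of SRSF3, SRSF7 and SRSF11, and in 3763 of the 35116 windows. For SRSF7 and SRSF11 it stands only in the window of the start inside the gene. CCAAT stands in 1 of the 12 and in 32.0% of all windows. GGGCGG stands in 5 of the 12, of 4 genes, and in 42.6% of all windows. The same TGACGT letters thus lie before genes that were lower and genes that were higher, and no binding was measured here.

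SRSF10 is an SR protein that acts as a repressor of splicing when dephosphorylated, and its 4 probes divided by transcript accession. The probes of NM_054016 were both lower. A_23_P352291 read between 0.86 and 1.29, with a median of 1.05, in control and between 0.14 and 0.45, with a median of 0.39, with SRSF2. A_24_P4795 read between 1.08 and 1.25, median 1.15, in control and between 0.46 and 0.61, median 0.52, with SRSF2. Neither had overlapping arrays, and the changes were -0.73 (SE 0.081, limma adjusted p = 6.75e-06) and -0.63 (SE 0.0473, limma adjusted p = 1.84e-07).

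The SRSF10 probes of NM_006625 were both higher. A_32_P45493 read between 2.73 and 2.85, median 2.80, in control and between 3.34 and 3.68, median 3.52, with SRSF2, without overlap. Its change was 0.70 (SE 0.0627, limma adjusted p = 9.04e-07). A_23_P45737 read between 0.22 and 0.53, median 0.26, in control and between 0.51 and 1.03, median 0.69, with SRSF2. Here 1 array of each condition crossed, and the change was 0.43 (SE 0.0996, limma adjusted p = 0.00235, but 0.0517 on array means). All 4 probes kept their direction on each slide.

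SRSF1, the prototype SR protein and a known oncogene, had 2 probes of NM_006924 that were higher and 1 of NM_001078166 that was lower, with no overlap between conditions for any of them. A_23_P49521 read between -0.55 and -0.28, median -0.51, in control and between 0.13 and 1.04, median 0.46, with SRSF2. Its SRSF2 arrays were highest on slide 1 and lowest on slide 2, and its change of 0.98 (SE 0.155, limma adjusted p = 0.000142), or 1.97-fold, was 1.28, 0.67 and 0.97 on slides 1, 2 and 3. A_23_P49517 read between 3.75 and 3.92, median 3.79, in control and between 3.93 and 4.25, median 4.04, with SRSF2. The conditions were separated by a narrow gap, and the change was 0.26 (SE 0.0678, limma adjusted p = 0.0057). It did not pass with normexp (0.25, adjusted p = 0.108), without background subtraction (0.21, 0.0861) or on the means of same-condition arrays of a slide (adjusted p = 0.1).

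The SRSF1 probe of NM_001078166, A_24_P921933, read between -3.21 and -2.88, median -3.04, in control and between -4.39 and -3.44, median -3.64, with SRSF2. It is dim, and 5 of the 6 SRSF2 arrays were well above background. The change was -0.69 (SE 0.144, limma adjusted p = 0.00115), and it ran from -0.35 to -1.11 over the slides.

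SRSF7, a zinc knuckle SR protein also active in messenger RNA export, had 2 probes of the same accession (NM_001031684) that moved apart. A_23_P39704 read between 4.91 and 5.29, median 5.23, in control and between 5.82 and 5.95, median 5.90, with SRSF2. A_24_P222911 read between -1.32 and -1.24, median -1.30, in control and between -1.66 and -1.42, median -1.60, with SRSF2. Neither overlapped between conditions. The former rose 1.66-fold, by 0.73 (SE 0.0678, limma adjusted p = 1.32e-06), and the latter fell by 0.27 (SE 0.051, limma adjusted p = 0.000499).

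SRSF9, a short SR protein close to SRSF1, showed no detectable change with A_24_P390070 (NM_003769). Its control arrays read between 2.53 and 2.85, with a median of 2.68, and its SRSF2 arrays between 2.45 and 3.31, with a median of 2.73. The difference was 0.14 (SE 0.145, limma adjusted p = 0.422). By slide the values were 0.49, 0.03 and -0.09, so the sign turned on slide 3, and without slide 1 the difference was -0.03.

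Whether probes of one gene changed by different amounts was tested on the difference between their log2 signals within each array, which no scaling of a whole array can alter. With limma over the 6315 pairs of tested probes of all genes, 7.87% were called, meaning that the changes of the probes differed by at least 1 on the log2 scale with an adjusted p no higher than 0.05. Of the 12 pairs in SR protein genes 6 were called, and 9 passed the adjusted p alone, against 40.0% of all pairs. Pairs of different accessions were called more often over all genes, in 16.2% of 611 pairs, than pairs of the same accession, in 6.98% of 5704, and this difference was not tested. Pairs of different accessions made up a larger part of the SR protein pairs than of all pairs. Of the 6 called SR protein pairs, only that of SRSF7 joined probes of the same accession. Pairs that share a probe are not independent.

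For SRSF10, all 4 pairs of different accessions were called, but with normexp only the 2 of them that include A_32_P45493. The changes of A_24_P4795 and A_32_P45493 differed by 1.34 (SE 0.0792, limma adjusted p = 4.19e-08, written as the former minus the latter: -1.34), and within arrays their log2 difference lay between -1.76 and -1.53 in control and between -3.22 and -2.81 with SRSF2. The other 3 pairs differed by 1.07, 1.16 and 1.43 in size. No array of one condition reached the range of the other in any of the 4. The same-accession pairs were closer. The NM_054016 probes differed by -0.09 (SE 0.0943, limma adjusted p = 0.481), and the NM_006625 probes by -0.27 (SE 0.106, limma adjusted p = 0.0588, and 0.00335 with the replicate block, or 0.0433 with slide as a block on array means). The latter pair also passed without slide 1 (0.0158) and without SRSF2 replicate 1 or 2 (0.0355 and 0.0339).

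For SRSF1, A_23_P49521 and A_24_P921933 differed most, by 1.67 (SE 0.152, limma adjusted p = 2.17e-06), with 1.89, 1.79 and 1.32 on slides 1, 2 and 3. With normexp that pair was not called. The SRSF1 probes A_23_P49517 and A_24_P921933 differed by 0.95 (limma adjusted p = 0.000237), and the same-accession probes A_23_P49517 and A_23_P49521 by -0.72 (limma adjusted p = 0.0002). Both sizes were under the threshold of 1, and the arrays did not overlap in either pair.

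For SRSF7, the difference of 1.00 (SE 0.0783, limma adjusted p = 5.32e-07) lay between probes of one accession, and it fell to 0.95 on slide 2 and 0.85 on slide 3. It stood at 1.21 on slide 1. Its size is at the threshold of 1, and the pair was not called with normexp or without slide 1 (0.90). Nor was it called without any 1 of control replicates 1 and 2 and SRSF2 replicates 1, 4 and 6 (0.96 to 0.99). Its adjusted p was still at most 0.00432 under all 30 alternatives. For SRSF6 the probes differed by 0.36 (limma adjusted p = 0.0322). This SRSF6 pair did not pass without slide 1 or 2, nor without any 1 of control replicates 1, 5 and 6 and SRSF2 replicates 1 to 4 (adjusted p from 0.0523 to 0.145). It also did not pass on array means (limma adjusted p = 0.195) or without the filter (0.0554). For SRSF4 the probes differed by 0.52 (limma adjusted p = 0.0662, and 0.0281 with the replicate block, but 0.116 with slide as a block on array means), and the pair passed without slide 2 (0.0378) and without SRSF2 replicate 3 or 4 (0.029 and 0.0385). The SRSF4 difference had the opposite sign, -0.06, with normexp. The positions of the probes on the transcripts are not given here, so which exon or transcript end each reports was not tested.

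**Figure D3:**
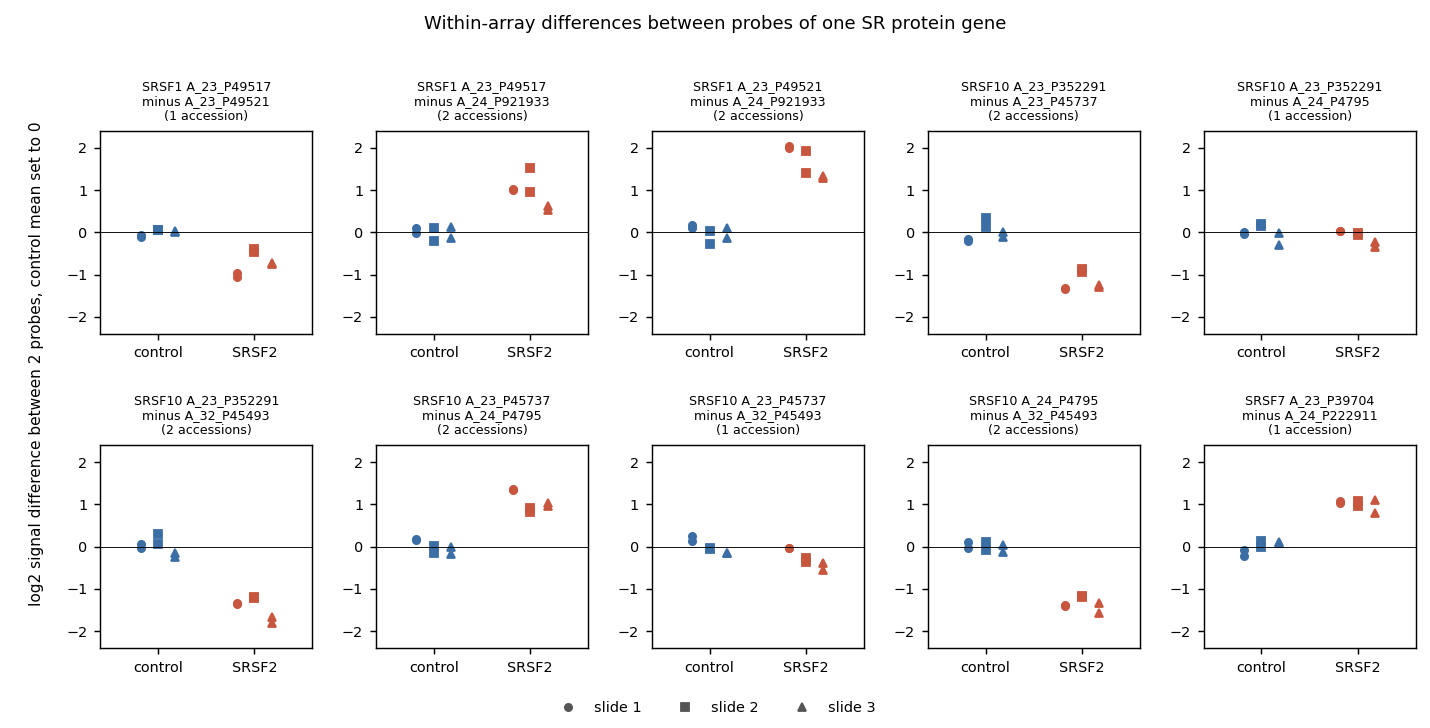
Within-array log2 signal difference between probes of one gene (vertical axis), with the control mean set to 0, for the 10 pairs of SRSF1, SRSF7 and SRSF10 on 6 control and 6 SRSF2 over-expression arrays. The SRSF10 pairs of different accessions and the SRSF7 pair lie away from 0 on all SRSF2 arrays, while the 2 same-accession SRSF10 pairs overlap with control.

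Beyond these genes, a list of 28 other SR and SR-related genes had 44 probes of 27 genes, of which 42 were tested. With limma, 30 passed (71.4%), 19 higher and 11 lower, against 57.7% of all probes. RSRP1, a gene coding for a small arginine- and serine-rich protein, had the largest rise, from between -1.92 and -1.55, median -1.70, in control to between 0.94 and 1.24, median 1.01, with SRSF2. It was 6.88-fold higher (log2 change 2.78, SE 0.0792, limma adjusted p = 8.32e-11). TRA2A, the paralogue of TRA2B, rose 2.15-fold, from between -1.66 and -1.14, median -1.36, to between -0.59 and 0.15, median -0.40 (log2 change 1.11, SE 0.146, limma adjusted p = 2.98e-05). Both TRA2 genes were thus higher.

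RNPS1, a component of the exon junction complex, was higher with its 3 probes, by 1.00, 0.69 and 0.55 on the log2 scale. SUGP2, a nuclear protein with a G-patch domain, was lower by 2.17-fold with A_24_P332926 of NM_014884, a log2 change of -1.12 (SE 0.0683, limma adjusted p = 3.08e-08). Its other probe, of NM_001017392, changed by -0.16 (limma adjusted p = 0.0719, and 0.00888 with the replicate block, but 0.105 with slide as a block on array means), and it passed without slide 2, control replicate 6 or SRSF2 replicates 3 or 4 (0.0207 to 0.0409). No gene of this list had passing probes in both directions.

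The list of kinases that phosphorylate SR proteins and their import receptor held 10 genes, with 19 probes of 9 genes and 15 tested. With limma, 10 passed (66.7%, against 57.7% of all probes), 7 higher and 3 lower. At 2-fold 4 were called, all higher, of CLK1 and CLK4, against 3.68% of all probes called higher. CLK1 A_24_P257151, 1 of the 4, met the background filter only through the SRSF2 arrays, where it is higher. Its call is thus not independent of the filter. CLK1, a nuclear kinase of SR proteins, rose 3.03-fold with A_23_P16817, from between -0.72 and -0.52, median -0.64, in control to between 0.72 and 1.34, median 0.90, with SRSF2 (limma adjusted p = 4.5e-08). Its probe A_24_P257151, well above background on 4 of the 6 control arrays, rose by 2.07, and by 0.80 under the alternative that moved it most. CLK4, a close relative, rose by 1.12 with A_23_P61674 and by 2.77 with A_24_P123521. Under the alternative that moved each most, the rises were 0.605 and 1.36. The latter probe is dim in control, between -4.49 and -3.86, and was well above background on 5 of the 6 control arrays.

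CLK3 rose with its 3 probes, by 0.73, 0.74 and 0.76, the one at 0.74 not passing without slide 3 (limma adjusted p = 0.0717) or on array means (0.0604). For CLK2, probe A_32_P79610 changed by -0.94 (limma adjusted p = 2.24e-05), A_23_P85888 by -0.56 (limma adjusted p = 1.96e-06, but 0.221 with spike-in scaling) and A_24_P67027 by -0.10 (limma adjusted p = 0.315). SRPK1, the cytoplasmic SR protein kinase, changed by -0.35 (SE 0.0753, limma adjusted p = 0.00136, but 0.655 with spike-in scaling), with overlapping arrays. SRPK2, DYRK1A and the import receptor TNPO3 had tested probes that did not pass.

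**Figure D4:**
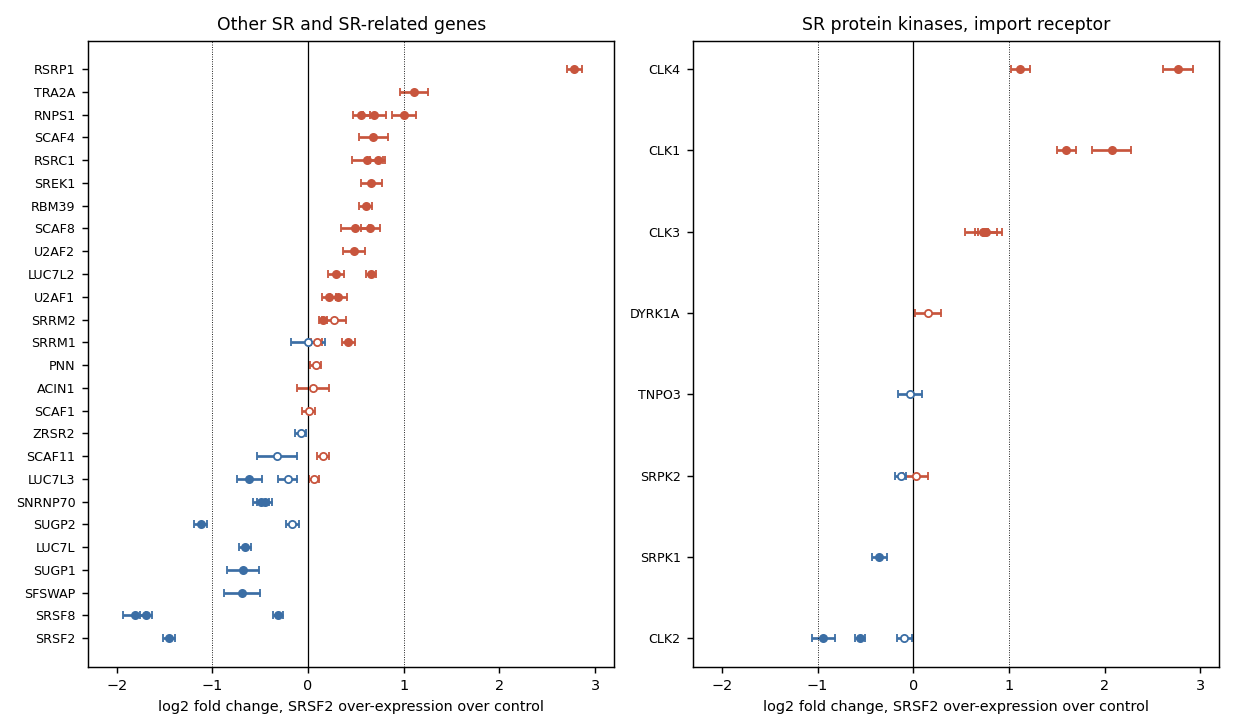
Log2 fold change with standard error, SRSF2 over-expression over control (horizontal axis), for the tested probes of other SR and SR-related genes (left) and of SR protein kinases and their import receptor (right). Filled circles passed the test, and dotted lines mark 2-fold. RSRP1 at 2.78 and CLK4 at 2.77 are farthest to the right, and 2 SRSF8 probes and the SRSF2 probe farthest to the left.

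The direction of these changes is relative to the array. Scaling on 7 spike-in probes raised the median log2 change of all probes to 0.22, and of all probes 26.7% then passed, 20.4% higher and 6.23% lower. Of the 18 SR protein probes 8 passed, 6 higher and 2 lower. Without slide 1 this median was 0.02, 25.3% of all probes passed, 12.2% higher and 13.1% lower, and 9 SR protein probes passed, 4 higher and 5 lower. This scaling moves all probes of an array together. Values with all slides were therefore larger for probes that had been higher and smaller in size for those that had been lower. SRSF1 A_23_P49517 stood at 0.46, SRSF1 A_24_P921933 at -0.49, SRSF4 A_23_P126197 at -0.34, SRSF6 A_32_P11786 at -0.36, SRSF7 A_24_P222911 at -0.07 and the lower SRSF10 probes at -0.52 and -0.43, none of them passing the test, and SRSF11 at 0.04 did not pass either. SRSF5 passed at -0.97, and SRSF3, TRA2B and SRSF7 A_23_P39704 passed as higher. Averaging the 2 same-condition arrays of each slide first, which leaves 3 values against 3, 12 of the 18 SR protein probes passed, 5 higher and 7 lower, and 6 pairs were called. Of all probes, 39.0% then passed, 19.8% higher and 19.2% lower. With slide as a block on these means, 15 of the 18 passed, 7 higher and 8 lower, as did 13328 of all 24330 probes. Slide was not a block in the values on array means given above unless stated.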

How the data were processed

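The authors deposited, for each of 12 one-colour arrays, scanner files from Feature Extraction 10.7.3.1, whose processed intensity is background-subtracted, and a table of log2 values scaled to the 75th percentile and centred per probe, used here as an alternative. The paper's methods name GeneSpring GX and a t-test, with Benjamini-Hochberg correction and a 2-fold threshold. The mean spot intensity was not used here, and the median spot intensity stood in for it in the background alternatives.

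Log2 processed signals were averaged over the spots of a probe, without outlier flags, and the array's 75th percentile was subtracted. Probes were tested if missing on no more than 25% of arrays and if 5 or more of the 6 arrays in either condition were well above background. The test was made with limma 3.58.1 in R 4.3.3 (lmFit, eBayes, no covariates), with Benjamini-Hochberg adjustment over all probes, or over all within-gene pairs. Summaries and exact permutation tests used Python 3.11.15 and scipy 1.17.1. On simulated data the fit recovered 194 of 200 changed probes with 0 false calls (23740 probes), and 103 of 104 pairs with 1 false call (5903 pairs). The planted changes were larger than 2-fold, calls needed the size threshold, and the noise was independent between arrays. These rates therefore do not apply to smaller changes, to calls on adjusted p alone or to arrays that vary together by slide.

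RefSeq accessions matched to the GRCh38.p14 gene table named 23958 of 25868 probes with such an accession, and 17042 of 41000 gene probes are unnamed here. Arrays of the same replicate number lay on 1 slide, and their deviations from the condition means correlated in all 6 pairs (r from 0.28 to 0.64). Arrays of the same slide but another number correlated as closely (0.33 to 0.65), against -0.48 to -0.05 between slides. The numbers thus pair the arrays only through the slide. Named were every probe of the 10 genes, the SRSF2 and SRSF8 probes and, from the other lists, genes called at 2-fold, or the largest passing changes up to 6 genes; names of other genes were chosen after their values were seen. The genes and lists were chosen with earlier results of these data known. Alternatives covered scaling, background, filters, outlier spots, the methods' t-test, the authors' table, slide and replicate blocks, and left-out slides and arrays. Spike-in scaling without slide 1, and array means with slide as a block, were added after seeing the data. One marker gene is not reported here. The number of arrays limits the precision.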

Additional observations from a re-analysis of the deposited data

How the results depend on the processing

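Of 537 values of single SR protein probes under 30 alternatives, 496 kept their direction and side of the threshold, 34 no longer passed, 3 newly passed and 4 changed sign. Of 357 pair values, 329 kept both, 12 no longer passed, 15 newly passed and 1 changed sign. The causes of the moves below were not tested.

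Over all probes, 1702 were called at 2-fold, but 331 with normexp, 798 without background subtraction and 1029 with the stricter filter, which leaves fewer probes to test. Of all probes, 14042 passed the adjusted p, but 6486 with spike-in scaling and 6154 with spike-in scaling without slide 1. Spike-in scaling left 8 SR protein probes passing, 2 of them lower, and 19 of the other SR-related probes in place of 30. Without slide 1 it left 9 SR protein probes, 4 higher and 5 lower. In place of 2 SR protein probes at 2-fold (SRSF5 and SRSF4 A_24_P148086), 1 was called with spike-in scaling, which was SRSF1 A_23_P49521, with SRSF5 at -0.97 and SRSF4 A_24_P148086 at -0.85. With normexp, no background subtraction, the stricter filter, the mean of 2 arrays, without slide 1 and without slide 3 the count was also 1, and that probe was SRSF5. Leaving out single arrays gave between 1 and 3, with 1 without control replicates 3 or 4 or SRSF2 replicates 5 or 6, and 3 without control replicates 1 or 2 or SRSF2 replicates 3 or 4. Of the 6 called pairs, 2 were called with normexp.

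Signs turned with spike-in scaling for SRSF6 A_23_P109017 (0.004), SRSF11 (0.045), SUGP2 A_23_P16562 (0.041) and CLK2 A_24_P67027 (0.109), for SRSF9 without slide 1 (-0.031, and -0.017 with spike-in scaling), and for the SRSF4 pair with normexp (-0.057).

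With the replicate block, 1706 probes were called at 2-fold and 15997 passed the adjusted p, as did 17 SR protein probes, 7 higher and 10 lower, 35 other SR-related probes and 10 kinase and import receptor probes, with 2 SR protein probes at 2-fold and 6 called pairs. Beside the values given with the results, it changed no other call of an SR protein probe or pair. Dim probes such as SRSF4 A_24_P148086 and SRSF1 A_24_P921933 are limited by signal over background.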
